A study of Mus musculus with 8 samples.

Results

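Tert and the genes that protect and lengthen telomeres were examined in testis of mice with and without CTCFL, a protein of male germ cells related to the insulator factor CTCF. The list comprised Tert, the shelterin genes Terf1, Terf2, Terf2ip, Pot1a, Acd and Tinf2, and the telomerase and helicase genes Dkc1 and Rtel1. Members were the probe sets that the array annotation assigns to 1 of these 9 genes and to no other. Of the 9 genes, 8 were represented, by 24 of 45101 probe sets, in a table that names 20664 genes in all. Acd had no probe set of its own, and the single probe set that names it also names Nsd1.

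Telomeres are repeats at chromosome ends that shorten when DNA is copied, and telomerase adds repeats back. Tert is the reverse transcriptase of telomerase and Dkc1 encodes dyskerin, which binds and stabilises its RNA. Shelterin coats the repeats, hides the ends from the DNA damage response and controls access of telomerase, while the helicase RTEL1 unwinds telomeric loops. In the testis telomerase is active in the germ line, where dividing spermatogonia pass their telomeres to the next generation, and in meiotic prophase telomeres are tethered to the nuclear envelope.

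Affymetrix Mouse430_2 arrays were probed with total RNA of whole testis, taken on postnatal day 23, with an array for each sample. Of the 8 samples, 5 are labelled wildtype (replicates 1, 2, 4, 6 and 7) and 3 mutant (replicates 3, 5 and 8). According to the study's text, mutant mice are homozygous for an allele (Ctcfl del) in which exons between LoxP sites, placed by targeting in ES cells, were deleted in the animal by crossing to a chicken Actin-Cre transgene, and the controls are heterozygous littermates (Ctcfl del/+). The labels call the same controls wildtype, and that name is kept here. If the controls are heterozygous, both groups carry at least 1 deleted allele. No source states whether each sample came from a separate animal, so the p-values measure the spread between these samples, which may be technical. Ctcfl itself was not analysed here, which leaves the genotype of each array unchecked. Because whole testis was used, fewer cells of a type and less RNA per cell cannot be told apart.

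The tissue was checked against marker genes, each read from 1 probe set. Probe sets were found for markers of spermatogonia (8 of 8), spermatocytes (5 of 7) and Sertoli cells (7 of 7). Their mean log2 levels per array were 7.84 to 8.16, 10.1 to 10.4 and 8.88 to 9.17. Of these markers 7, 5 and 7 had means above the median of all probe sets, and spermatogonial Gfra1, at 5.18, lay below. A level alone does not show that a transcript was present. Spermatogonial markers averaged 7.84 to 8.0 in wildtype and 7.92 to 8.16 in mutant arrays and were higher in the mutant mean for 7 of 8 genes, whereas 4 of the 5 spermatocyte markers were lower. Spermatid markers were lower in the mutant mean for 8 of 8 genes, Sertoli markers higher for 6 of 7 and Leydig markers higher for 4 of 4. Wildtype replicate 7 and mutant replicate 8 lay apart from the remaining 6 arrays, at 40.2 and 38.2 on a principal component that carried 44.9% of the variance, against -24.8 to -3.10. In these arrays 8 spermatid markers averaged 11.4 and 10.9, against 8.53 to 9.35 in the others, and 4 fat genes averaged 8.83 and 8.94, against 6.22 to 7.22. Where both lie outside the other 6 on the same side of a member probe set, its difference is also given for the 6 arrays or the pair. For some other probe sets it is given likewise, and the part of cell composition in the values was not tested.

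CTCFL binds DNA, and whether it binds at Tert was not tested here. Tert held the only member probe sets whose groups did not overlap (2 of 24, against 2.70% of all), and the Tert promoter is shown here. It spans chr13:73626661-73626960 on the plus strand of GRCm38.p6 (RefSeq), from 250 bases before to 50 bases after the start of the gene, which itself runs from 73626911 to 73649843. Capitals mark GC boxes (GGGCGG, here read on the other strand).

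Tert promoter: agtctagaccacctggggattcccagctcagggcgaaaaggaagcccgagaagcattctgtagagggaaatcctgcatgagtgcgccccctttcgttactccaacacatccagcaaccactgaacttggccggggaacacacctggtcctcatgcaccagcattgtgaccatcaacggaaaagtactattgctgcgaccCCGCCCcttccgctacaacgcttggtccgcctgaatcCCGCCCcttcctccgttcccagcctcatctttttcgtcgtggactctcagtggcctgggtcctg

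The 2 GC boxes begin 51 and 14 bases before the start site, and the window has a GC content of 57.3%. Promoter entries were found for 8 of the 9 genes, with 9 promoters, and none was found for Terf1. A GC box on either strand was present in 5 of the 8 genes and in 35.7% of 32851 mouse promoters of the same length. The E-box CACGTG, bound by MYC, was in none of the 8 and in 7.15% of all promoters. The letters GGNGGCAG, a core of the CTCF motif, were likewise in none of the 8 and in 12.6% of all promoters. These are matches of letters only, and no binding data were used here.

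Tert was the only gene of the list with probe sets that separated the genotypes, as 2.70% of all probe sets did. Its 2 probe sets separated them in opposite directions. Probe set 1450254_at, taken as the main one by rule, was lower in mutant testis by 1.13-fold, and 1456941_at was higher by 1.24-fold. Neither passed the adjustment over all probe sets, so no direction is given for the gene. On 1450254_at the log2 levels were 5.70, 5.76, 5.86, 5.93 and 5.83 in wildtype replicates 1, 2, 4, 6 and 7, and 5.67, 5.60 and 5.63 in mutant replicates 3, 5 and 8. All mutant arrays lay below all wildtype arrays, although wildtype replicate 1 and mutant replicate 3 were close. The means were 5.82 ± 0.09 (SD, n = 5) and 5.63 ± 0.03 (SD, n = 3), a log2 difference of -0.18 (SE 0.07, 95% interval -0.34 to -0.027). On 1456941_at the levels were 4.18, 4.19, 4.18, 4.11 and 4.32 in the wildtype arrays and 4.55, 4.47 and 4.50 in the mutant arrays. Here the mutant arrays were the highest, and the nearest wildtype array was replicate 7. The means were 4.20 ± 0.08 (SD, n = 5) and 4.51 ± 0.04 (SD, n = 3), a log2 difference of 0.31 (SE 0.07, 95% interval 0.16 to 0.46).

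**Figure D1:**
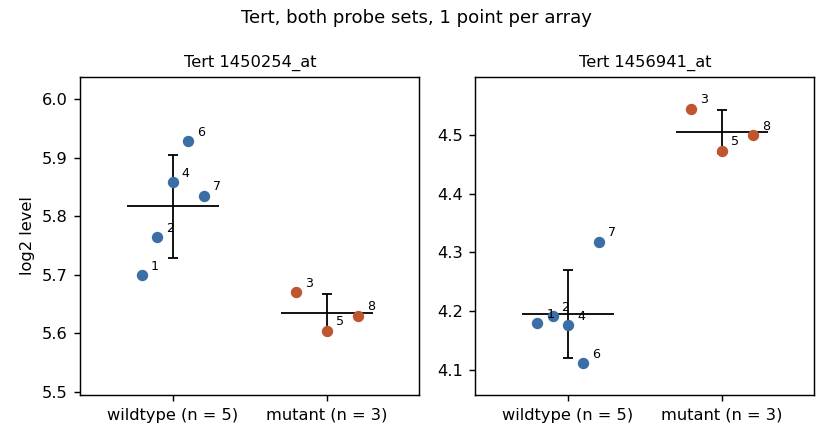
Log2 level of the 2 Tert probe sets in each array (y axis, same span in both panels), with wildtype in blue and mutant in orange, replicate numbers beside the points, and the mean and SD of each group as lines. All 3 mutant arrays sit below the wildtype arrays on 1450254_at (5.63 against 5.82 on average) and above them on 1456941_at (4.51 against 4.20).

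Ordered by limma p, the Tert probe sets ranked 685 (1450254_at) and 13 (1456941_at) of 45101. The limma adjusted p was 1.0 for both. An exact two-sided permutation test of the 8 arrays gave p = 0.0357 for each of the 2 (the one-sided p doubled), the smallest value that 5 against 3 arrays allow. Any probe set whose groups do not overlap (2.70% of all) would get this value, so it only restates the separation. Within the 6 arrays that lay together the difference was -0.18 for 1450254_at and 0.35 for 1456941_at. Between mutant replicate 8 and wildtype replicate 7, with 1 array each, it was -0.20 and 0.18. The signs could not change in either set, because the groups did not overlap, so they add no further support. Averaged over both probe sets the Tert difference was 0.065, with the sign of the second.

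No absolute scale of expression is given by these levels. For comparison, 31 probe sets of 16 genes not expected in testis, such as growth hormone Gh and casein Csn2, had mean log2 levels from 3.30 to 7.75 with a median of 4.62. Means above that span were found for 4 of the 24 member probe sets, none of them of Tert. The Tert means over all arrays were 5.75 (1450254_at) and 4.31 (1456941_at), the second below the median of 4.62. Probe sets differ in how well they bind, so a level cannot be read as an amount of transcript, and whether Tert transcript was detected could not be decided from these values.

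Across the 24 probe sets most differences between genotypes were small, as they were over all probe sets. With limma, 0 of the 24 passed an adjusted p of 0.05, as did 0% of all 45101 probe sets. At an unadjusted p under 0.05 there were 2 of 24 (8.33%), against 3.47% of all probe sets, and the groups did not overlap for the same 2, against 2.70% of all. Both were those of Tert, whose pattern was known when the list was drawn up, and among the other 22 probe sets there were 0 by either criterion. The median log2 difference was -0.026 over the members and 0.0032 over all probe sets. In mutant testis 15 members were lower and 9 higher, against 21882 lower and 23219 higher over all probe sets. In 21 of 24 the difference was smaller than 0.2 on the log2 scale, against 42748 of all 45101, which is a larger share.

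**Figure D2:**
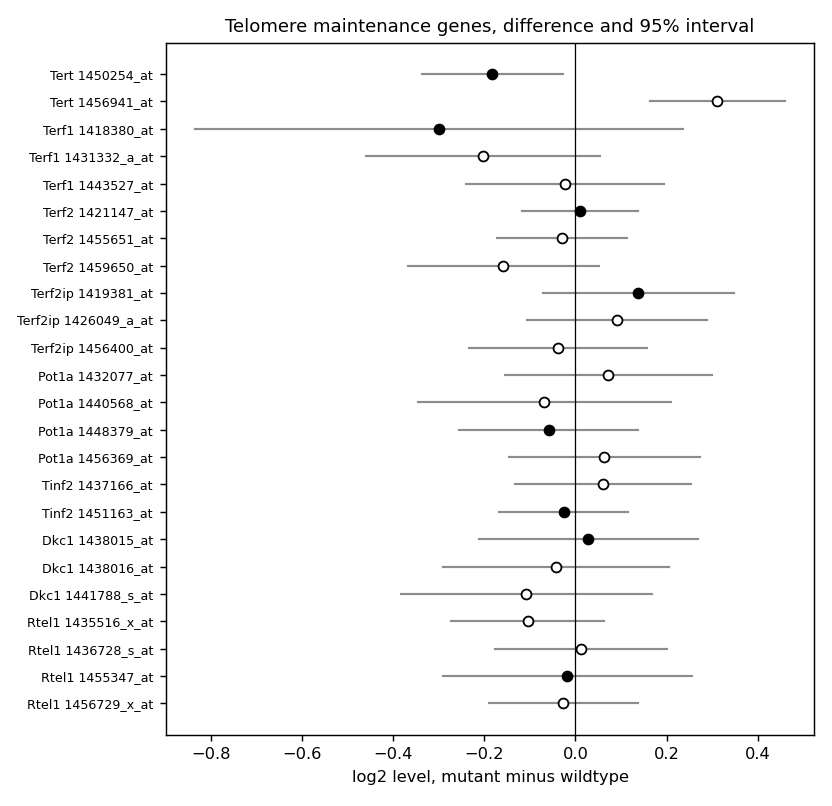
Log2 difference, mutant minus wildtype, of each of the 24 probe sets (x axis) with its 95% interval from limma, where filled circles mark the main probe set of a gene and open circles the others. The intervals leave out 0 only for Tert, on opposite sides (-0.34 to -0.027 and 0.16 to 0.46).

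Probe sets of the same gene often disagreed in sign. Among 26 pairs of probe sets within a gene, 15 had differences of opposite sign, and such pairs occurred in 7 of the 8 genes. Terf1 was the exception, with all 3 probe sets lower in the mutant mean. Outside Tert, the 95% interval of each difference included 0. No such count over all genes was made for comparison, and many of these pairs share a probe set.

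Terf1 and Terf2 encode the proteins that bind the double-stranded repeat and anchor shelterin. Terf1 had the widest range of the 24 probe sets, 1.28 on 1418380_at, and 1 wildtype array lay behind most of it. On the main probe set 1418380_at the log2 levels were 7.63, 7.42, 7.35, 7.33 and 8.50 in wildtype replicates 1, 2, 4, 6 and 7, and 7.42, 7.40 and 7.22 in the mutant arrays. Replicate 7 exceeded the mean of the other wildtype arrays by 1.07, while the other 7 arrays overlapped. The difference between genotypes was -0.30 (SE 0.24, limma adjusted p = 1.0), and -0.085 without wildtype replicate 7. In the 6 arrays it was -0.020, and between mutant replicate 8 and wildtype replicate 7 it was -1.28.

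On 1431332_a_at Terf1 showed the same high array, with 6.39, 6.32, 6.28, 6.27 and 6.77 in wildtype and 6.18, 6.15 and 6.29 in mutant testis. Its difference was -0.20 (SE 0.12, limma adjusted p = 1.0), -0.15 in the 6 arrays, -0.49 in the pair and -0.11 without wildtype replicate 7. The third probe set, 1443527_at, did not follow. There wildtype replicate 7 was the lowest wildtype array at 5.24 and mutant replicate 8 the lowest mutant array at 5.26, below the other 6 at 5.40 to 5.57. Wildtype replicate 7 was thus highest on 2 probe sets and lowest on the third. On the third the difference was -0.023 (SE 0.10), 0.0047 in the 6 arrays and 0.022 in the pair.

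**Figure D3:**
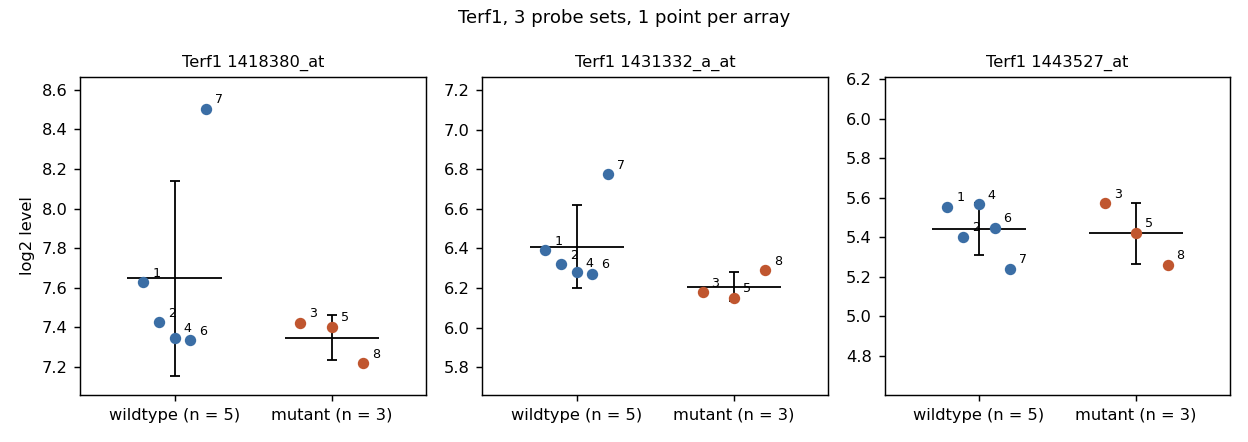
Log2 level of the 3 Terf1 probe sets in each array (y axis, same span in each panel), with wildtype in blue, mutant in orange, replicate numbers beside the points and the mean and SD of each group as lines. Wildtype replicate 7 is far above the others on 1418380_at (8.50) and highest on 1431332_a_at (6.77), but lowest on 1443527_at (5.24).

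Terf2 encodes TRF2, which holds the telomere loop closed, and its main probe set had the narrowest range of the 24. On this probe set, 1421147_at, the levels were 9.57, 9.56, 9.56, 9.53 and 9.60 in wildtype and 9.54, 9.60 and 9.59 in mutant arrays, a range of 0.068 over all 8. The groups were interleaved, and the difference was 0.011 (SE 0.06, 95% interval -0.12 to 0.14). The second probe set, 1455651_at, differed by -0.030 (SE 0.06). The third, 1459650_at, was at 6.69 ± 0.14 (SD, n = 5) and 6.53 ± 0.11 (SD, n = 3), and its difference of -0.16 (SE 0.09) was -0.26 in the 6 arrays and 0.15 in the pair.

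Terf2ip encodes RAP1, which rides on TRF2. Its main probe set 1419381_at read 5.03, 4.79, 5.07, 4.83 and 5.12 in wildtype and 5.15, 5.16 and 5.01 in mutant arrays. Mutant replicates 3 and 5 were above every wildtype array, and mutant replicate 8 was not. The difference was 0.14 (SE 0.09), 0.23 in the 6 arrays and -0.11 in the pair. The other probe sets differed by 0.092 on 1426049_a_at and by -0.038 on 1456400_at.

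Pot1a encodes a protein that covers the single-stranded overhang, and Acd encodes TPP1, which links POT1 to shelterin and recruits telomerase. For Pot1a the main probe set 1448379_at read 7.77, 7.64, 7.60, 7.54 and 7.48 in wildtype and 7.44, 7.70 and 7.50 in mutant arrays, with overlapping groups and a difference of -0.058 (SE 0.09). The other 3 probe sets had mean levels of 3.28 to 4.32 and differences of -0.068 to 0.072. On 1 of these, 1440568_at, mutant replicate 8 stood alone at 3.09, below the other arrays at 3.36 to 3.68, and the difference was 0.11 in the 6 arrays and -0.43 in the pair. The probe set shared by Acd and Nsd1, 1420882_a_at, read 9.43 ± 0.10 (SD, n = 5) and 9.43 ± 0.07 (SD, n = 3), and which of the genes it measures was not tested.

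Tinf2 encodes TIN2, the hub that joins TRF1, TRF2 and TPP1. Its main probe set 1451163_at read 9.87, 9.91, 9.78, 9.91 and 9.90 in wildtype and 9.90, 9.84 and 9.80 in mutant arrays. The difference was -0.026 (SE 0.06, 95% interval -0.17 to 0.11). The second probe set, 1437166_at, differed by 0.061 (SE 0.09), with wildtype replicate 2 the highest array at 6.14.

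Dkc1 lies on the X chromosome, which is silenced during meiosis in spermatocytes. On the main probe set 1438015_at its levels were 7.61, 7.49, 7.21, 7.23 and 7.29 in wildtype and 7.40, 7.52 and 7.27 in mutant arrays, and the difference was 0.029 (SE 0.11). On 1438016_at they were 7.36, 7.44, 7.41, 7.38 and 7.06 in wildtype and 7.43, 7.37 and 7.07 in mutant arrays. Genotype did not order these values, whereas the pair of arrays with the high spermatid and fat markers was below the other 6 on 1438016_at (7.06 and 7.07 against 7.36 to 7.44). The difference on 1438016_at was -0.043 (SE 0.11), -0.0014 in the 6 arrays and 0.010 in the pair. The third probe set, 1441788_s_at, differed by -0.11 (SE 0.12), by 0.0043 in the 6 arrays and by -0.30 in the pair.

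Rtel1 encodes the helicase that dismantles telomeric loops and secondary structures. Its main probe set 1455347_at read 7.78, 7.62, 8.11, 7.78 and 7.50 in wildtype and 7.69, 7.76 and 7.77 in mutant arrays, with a difference of -0.018 (SE 0.12), -0.095 in the 6 arrays and 0.27 in the pair. The wildtype arrays spanned all mutant values. On 1436728_s_at the levels were 8.67, 8.64, 8.74, 8.74 and 8.92 in wildtype and 8.69, 8.67 and 8.89 in mutant arrays. There the pair of arrays was above the other 6 in both genotypes. The difference between genotypes was 0.012 (SE 0.08), -0.0145 in the 6 arrays and -0.022 in the pair. The probe sets 1435516_x_at and 1456729_x_at differed by -0.10 and -0.027.

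Over the 24 probe sets, wildtype replicate 7 and mutant replicate 8 both lay outside the other 6 arrays on the same side in 3 (12.5%), against 18.9% of all probe sets. These were Rtel1 1436728_s_at above, and Dkc1 1438016_at and Terf1 1443527_at below. The departures of the pair from their own groups had the same sign in 10 of 24. The 8.50 of Terf1 in wildtype replicate 7 had no counterpart in mutant replicate 8, which was the lowest mutant array on that probe set.

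**Figure D4:**
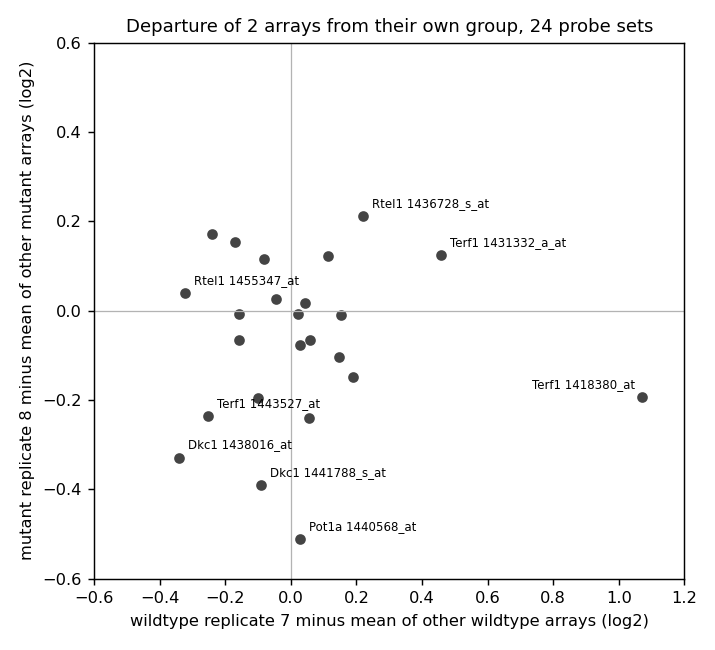
For each of the 24 probe sets, the departure of wildtype replicate 7 from the mean of the other 4 wildtype arrays (x axis, log2) against the departure of mutant replicate 8 from the mean of the other mutant arrays (y axis, log2). Terf1 1418380_at is far to the right (1.07) and below 0, and the departures share a sign in 10 of 24 probe sets.

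The other genes of telomere upkeep were read from a wider list of 37 genes, of which 35 had probe sets (76 in all), with none for Majin and Kash5. With limma, 0 of the 76 passed the adjusted threshold. At an unadjusted p under 0.05 there were 3 (3.95%, against 3.47% of all), 1 higher and 2 lower, and the groups did not overlap for 1 (1.32%, against 2.70% of all). The median difference was 0.0064, with 41 probe sets higher and 35 lower.

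By role, the telomerase partners and assembly factors (19 probe sets, 12 genes) had a median difference of -0.015 and 9 higher against 10 lower. The CST complex, which ends telomerase action and fills in the complementary strand, together with Pot1b (8 probe sets, 4 genes), had a median of 0.035. The tankyrases had a median of 0.0076 over 7 probe sets. Helicases, nucleases and telomeric chromatin genes (31 probe sets, 11 genes) had a median of 0.032 and 18 higher against 13 lower. The genes that attach telomeres to the nuclear envelope in meiosis (11 probe sets, 6 genes) had a median of -0.038, with 7 lower. They held both of the lower probe sets at an unadjusted p under 0.05. Those 2 were 18.2% of the 11, against 3.47% of all probe sets, and the roles were compared without a test.

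**Figure D5:**
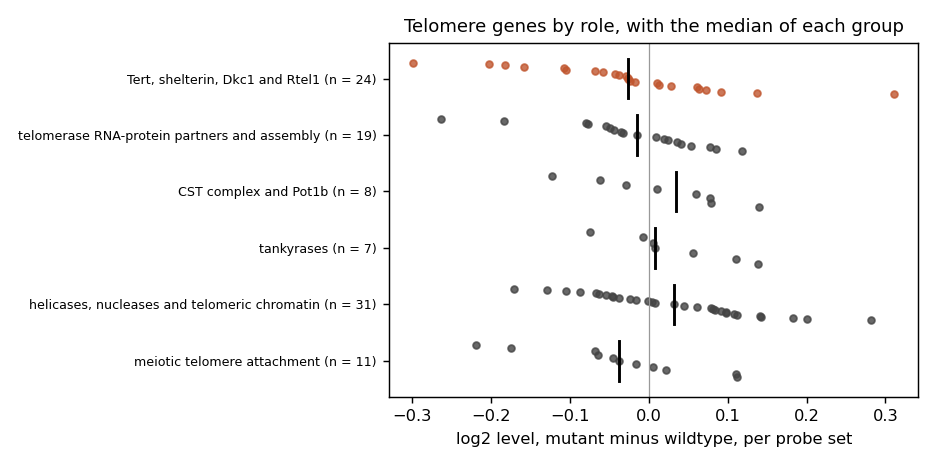
Log2 difference, mutant minus wildtype, of each probe set (x axis) by role of its gene, with points spread vertically for legibility only and a vertical bar at the median of each group. The medians lie between -0.038 (meiotic telomere attachment) and 0.035 (CST complex and Pot1b), within the spread of each group.

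One of these was Spdya, whose product Speedy A activates CDK2 at meiotic telomeres. On 1441390_at its levels were 9.56, 9.44, 9.42, 9.48 and 9.51 in wildtype and 9.37, 9.28 and 9.27 in mutant arrays. All mutant arrays were below all wildtype arrays, with a difference of -0.18 (SE 0.06, limma adjusted p = 1.0). The second Spdya probe set, 1429470_at, differed by -0.016 (SE 0.06), and its groups overlapped.

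The other was Terb2, part of the complex that fastens shelterin to the nuclear membrane. On 1430433_at it read 8.63, 8.65, 8.45, 8.47 and 8.61 in wildtype and 8.46, 8.21 and 8.35 in mutant arrays, a difference of -0.22 (SE 0.08, adjusted p = 1.0 with limma). Mutant replicate 3 overlapped the wildtype arrays. Its partner Terb1 differed by -0.064 and 0.0051 on 2 probe sets. Most spermatocyte markers were also lower in the mutant mean (4 of 5), and the part of cell composition in these values was not tested.

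The single higher one was Hmbox1 (1452449_at), a binder of telomeric double strands, with 6.66, 6.81, 6.63, 6.68 and 6.66 in wildtype and 6.71, 6.98 and 6.93 in mutant arrays. Its difference was 0.18 (SE 0.08), while the other Hmbox1 probe sets differed by -0.11 (1443020_at, SE 0.29) and 0.032 (1436341_at). Next by p among those higher were the flap endonuclease Fen1 at 0.20 and 0.14, Stn1 of CST at 0.14 and the chromatin remodeller Atrx at 0.28 (1420946_at). The other probe sets differed by 0.079 and 0.060 for Stn1 and by -0.054 to 0.14 for Atrx. Among those lower followed Wrap53, which guides telomerase to Cajal bodies, at -0.26 on 1456724_x_at and -0.036 on its other probe set. The assembly factor Naf1 was at -0.18 and Ctc1 of CST at -0.12 (1423656_x_at), with the other Ctc1 probe sets at -0.029 and 0.0099. The limma adjusted p was 1.0 for each of these.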

How the data were processed

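Testis RNA of 8 samples was measured on Affymetrix Mouse430_2 arrays, and the titles of the samples gave group and replicate. The authors, by their methods, applied RMA background correction and quantile normalisation, and the deposited table holds log2 levels of each probe set in each array. Its columns of group means, differences and p-values, and the authors' limma tables (fold changes and p-values), hold the authors' own comparisons and were not used. The build of the array annotation is not given in the sources used here. Gene symbols were updated through Entrez IDs in a RefSeq gene table (GRCm38.p6), which named 33571 of 36858 probe sets with 1 ID. Another 1952 probe sets name several genes.

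The deposited levels were fitted without a filter with lmFit and eBayes (limma 3.58.1 under R 4.3.3) by a two-sided test, adjusted by Benjamini-Hochberg over all 45101 probe sets, and the fit was tested on simulated data. Exact permutation tests used scipy 1.17.1. The main probe set of a gene is one without a suffix for cross-hybridisation if there is any, and among these the one of highest mean level. All member probe sets are named, with 5 per direction by unadjusted p from the wider list and the 5 most similar to Tert. Members, lists and the pair of arrays set apart were chosen with earlier results of these data known. Array medians lay between 6.40 and 6.45, and precision is set by the small number of arrays. Alternatives were leaving out arrays, a block for the pair, a level filter, centring, renewed quantile normalisation, a trended robust prior, array weights, an offset of 64 on the linear scale, no shared variance and other ways to combine probe sets. Of the list of genes not expected in testis, 1 is not reported here and was left out of its values.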

Additional observations from a re-analysis of the deposited data

Results flagged for a closer look

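In 4 of 24 member probe sets, 1 wildtype array lay far from the other 4, by a test of the gap against the range (Dixon) that chance passes in about 1 in 20 groups, or 1.2 of 24. The share was 16.7% of the members and 6.92% of all 45101 probe sets, and wildtype replicate 7 was the far array in 3 of the 24 and in 3.63% of all. For Terf1 1418380_at wildtype replicate 7 was at 8.50 and the nearest wildtype array at 7.63. For Terf1 1431332_a_at the same array was at 6.77 against 6.39. For Dkc1 1438016_at wildtype replicate 7 was low, at 7.06 against 7.36, and mutant replicate 8 was low as well, at 7.07. For Tinf2 1437166_at wildtype replicate 2 was at 6.14 against 5.93. The array behind 3 of the 4 is the wildtype one that also had high spermatid and fat markers. These markers were high in mutant replicate 8 as well. On the Terf1 probe sets above, mutant replicate 8 did not lie above the other 6 arrays, at 7.22 (1418380_at) and 6.29 (1431332_a_at). The part of these markers in the values was not tested.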

How the results depend on the processing

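With 5 and 3 arrays, only large or very even differences can pass the adjustment. The adjusted count of probe sets was 0 except with the array pair block, which gave 1, not a member. Without shared variance there were 0 adjusted and 1708 unadjusted. The unadjusted count of 1564 became 2956 in the 6 arrays, 2644 with the block and 707 above the median level, where fewer probe sets were tested, and 1220 to 2649 leaving out 1 array at a time (2649 without mutant replicate 8). The lowest adjusted p of a member was 0.751, and 8 of 24 kept their direction under every alternative run. Leaving out arrays could not change the sign of either Tert probe set, because their groups did not overlap. Tert 1450254_at reversed only where it was averaged with the other Tert probe set. Another 15 reversed under some alternative, and for each of these the 95% interval of the reported difference included 0. The cause was not tested, except that a mean over probe sets takes in others by construction.

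Averaging all probe sets of a gene gave 0.065 for Tert, -0.059 for Terf2, 0.0025 for Pot1a, 0.018 for Tinf2 and -0.041 for Dkc1, and those without a suffix gave the same, save -0.0072 for Dkc1. In the 6 arrays the reversed values were 0.0047 (Terf1 1443527_at), 0.0043 (Terf2 1455651_at), 0.11 and -0.021 (Pot1a 1440568_at and 1456369_at), 0.0053 (Tinf2 1451163_at), 0.0043 (Dkc1 1441788_s_at), -0.0145 and 0.037 (Rtel1 1436728_s_at and 1456729_x_at). With the block they were 0.0093 (Terf1 1443527_at), 0.0018 (Dkc1 1438016_at), -0.017 and 0.0035 (Rtel1 1436728_s_at and 1455347_at) and 0.0045 (Acd/Nsd1). With array weights they were 0.043 (Pot1a 1440568_at) and -0.0049 (Rtel1 1436728_s_at). Leaving out 1 array gave -0.0997 to 0.055 for Terf1 1443527_at, -0.0028 to 0.030 for Terf2 1421147_at, -0.085 to 0.0066 for Terf2ip 1456400_at, -0.036 to 0.19 and -0.19 to 0.10 for Pot1a 1432077_at and 1440568_at, -0.033 to 0.094, -0.11 to 0.067 and -0.19 to 0.022 for Dkc1 1438015_at, 1438016_at and 1441788_s_at, -0.058 to 0.056, -0.082 to 0.071 and -0.081 to 0.0077 for Rtel1 1436728_s_at, 1455347_at and 1456729_x_at, and -0.026 to 0.041 for Acd/Nsd1. No paired analysis was possible because no replicate number occurs in both genotypes.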

Other observations

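The probe sets of other genes whose levels were most like those of Tert differed between its 2 probe sets. For 1450254_at they were Rmc1, Iffo1, Fcer1a, Phf7 and Kcnj6, with Pearson r of 0.956 to 0.986 over the 8 arrays and 0.951 to 0.982 over the 6 arrays. All 5 were lower in the mutant mean, by 0.12 to 0.30 in size on the log2 scale. For 1456941_at they were Ryr2, Prnd, Myb, Ap1s3 and Ttc7, with r of 0.961 to 0.974, and all 5 were higher in the mutant mean, by 0.19 to 0.43. The levels share arrays and normalisation, these were the highest r among all named probe sets, and they are given as a description. Their directions follow from this choice, because each Tert probe set itself separated the genotypes. That the 2 lists differ follows as well, because the Tert probe sets had an r of -0.78 with each other over the 8 arrays.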
